A study of Bos taurus with 6 samples.

Results

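The genes of the RCAN, calcineurin and NFAT families were followed in primary bovine granulosa cells treated with PD98059, an inhibitor of MEK, the kinase that phosphorylates ERK. Of 10 listed genes, RCAN1, RCAN2, RCAN3, PPP3CA, PPP3R1, NFATC1, NFATC2 and NFATC3 were each read by 1 of the 24415 transcript clusters of the array, that is, by 1 group of probes over the gene's exons. PPP3CB and NFATC4 matched no cluster, by symbol or by transcript accession, and were not analysed here. The genes were taken by their symbol, but the group itself was chosen by its values in this contrast, in which RCAN1 and RCAN2 had already been seen to be lower with PD98059. The values of these genes are therefore a description with no test, and the calls counted among them support nothing further.

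Cells aspirated from small and medium follicles were frozen, thawed and grown for 4 days on collagen, in medium that held FSH, IGF-1 and androstenedione and no serum. On day 2, 3 cultures received 50 μM PD98059 for 2 h and 3 cultures received DMSO, the vehicle. Fresh medium without inhibitor followed, an exchange of 70% according to the labels, whereas the methods state no share. Each culture gave 1 GeneChip Bovine Gene 1.0 ST array, and whether the 3 cultures of a group came from separate cell preparations is not stated. Errors and p-values thus cover only how these 6 cultures vary, which may be technical.

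Calcineurin is the protein phosphatase that Ca2+ and calmodulin switch on. It is built of a catalytic A subunit, encoded by PPP3CA, PPP3CB or PPP3CC, and a Ca2+-binding B subunit, encoded by PPP3R1 in most tissues and by PPP3R2 in testis. Active calcineurin removes phosphate from the NFATc transcription factors, which then enter the nucleus, a route best known from T cells and heart muscle. The regulators of calcineurin, RCAN1 to RCAN3, bind the phosphatase and restrain it, and a short form of RCAN1 is itself induced by NFAT in muscle and endothelial cells, which closes a feedback loop.

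All values are log2 values of the Robust Multichip Average (RMA), which the authors computed from the 6 arrays together, and differences are PD98059 minus DMSO. The array medians lay between 4.68 and 4.74, and arrays correlated with r of 0.9938 to 0.995 within and 0.9912 to 0.9921 between treatments, across clusters, which are not independent replicates. A level at or under 3.71, the 95th percentile of 363 olfactory receptor clusters, was called near background, an approximation. A cluster was called where limma gave a fold above 1.4 together with an adjusted p (Benjamini-Hochberg FDR) under 0.05, limits that 2.69% of the 24415 clusters passed, 1.78% on the lower and 0.909% on the higher side. Granulosa markers were present: all 8 read of 9 listed, among them FSHR and CYP19A1, were above background, and 5 of them were higher with PD98059.

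In the treated cells the mRNA of RCAN1 and RCAN2 was lower. That of RCAN3, of the calcineurin subunits PPP3CA and PPP3R1 and of NFATC1 to NFATC3 differed by 1.14-fold or less. RCAN1 was 2.19-fold and RCAN2 1.56-fold lower. The limits were passed by 2 of the 8 genes read, both on the lower side and none on the higher, beside the 1.78% and 0.909% of all clusters. As these genes were picked with this contrast known, nothing is read from that share. The median difference of the 8 genes was 0.00, against 0.01 for all clusters. On the higher side 1 gene, NFATC1, had an unadjusted p under 0.05 in limma, and with the unmoderated test none of the 8 passed on either side.

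RCAN1, the best studied of the calcineurin regulators, was read at 7.50, 7.51 and 7.55 in the 3 DMSO cultures. In the 3 PD98059 cultures it was read at 6.60, 6.10 and 6.46. The groups were 0.90 apart at their nearest, and replicate 2 stood lowest among the treated cultures. The mean was 7.52 ± 0.03 (SD, n = 3) with DMSO and 6.39 ± 0.26 (SD, n = 3) with PD98059, a difference of −1.13 (standard error 0.13, 95% interval −1.44 to −0.83). The controls thus lay within 0.05 of each other and the treated cultures within 0.50. Its cluster is listed with 2 RefSeq transcripts and gives 1 value for the gene, so that long and short forms of the mRNA were not told apart. Without any single array the difference stayed between −1.24 and −0.99, and the largest shift came from leaving out PD98059 replicate 2.

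RCAN2, which in mouse and human is abundant in brain and heart and is known to respond to thyroid hormone, was read at 5.47, 5.66 and 5.39 with DMSO. With PD98059 it was read at 4.79, 4.96 and 4.85. Here, too, the groups did not overlap, with 0.43 between the nearest arrays, but replicate 2 stood highest in each group. The means were 5.51 ± 0.14 (SD, n = 3) and 4.87 ± 0.09 (SD, n = 3), a difference of −0.64 (standard error 0.09, 95% interval −0.86 to −0.42). The lower end of this difference in size lies inside the fold limit of 1.4, which is 0.49 on the log2 scale. The call was lost without DMSO replicate 1, PD98059 replicate 1 or PD98059 replicate 3, where the difference was −0.66, −0.60 and −0.63, and the RCAN1 call was lost in none of these fits. With the replicate block the RCAN2 call was lost and that of RCAN1 was not, and with the unmoderated test both were lost.

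RCAN3, the third regulator, differed far less. It was read at 5.63, 5.64 and 5.57 with DMSO and at 5.67, 5.66 and 5.66 with PD98059. The treated arrays lay just above the controls, by 0.02, and the difference was 0.05 (standard error 0.06, 95% interval −0.10 to 0.20). The spread of this gene was small, with 1.4% of all clusters below its SD within groups. The lower values of RCAN1 and RCAN2 thus had no counterpart in the third gene of the family, whose interval ends short of a 1.4-fold change on either side.

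**Figure D1:**
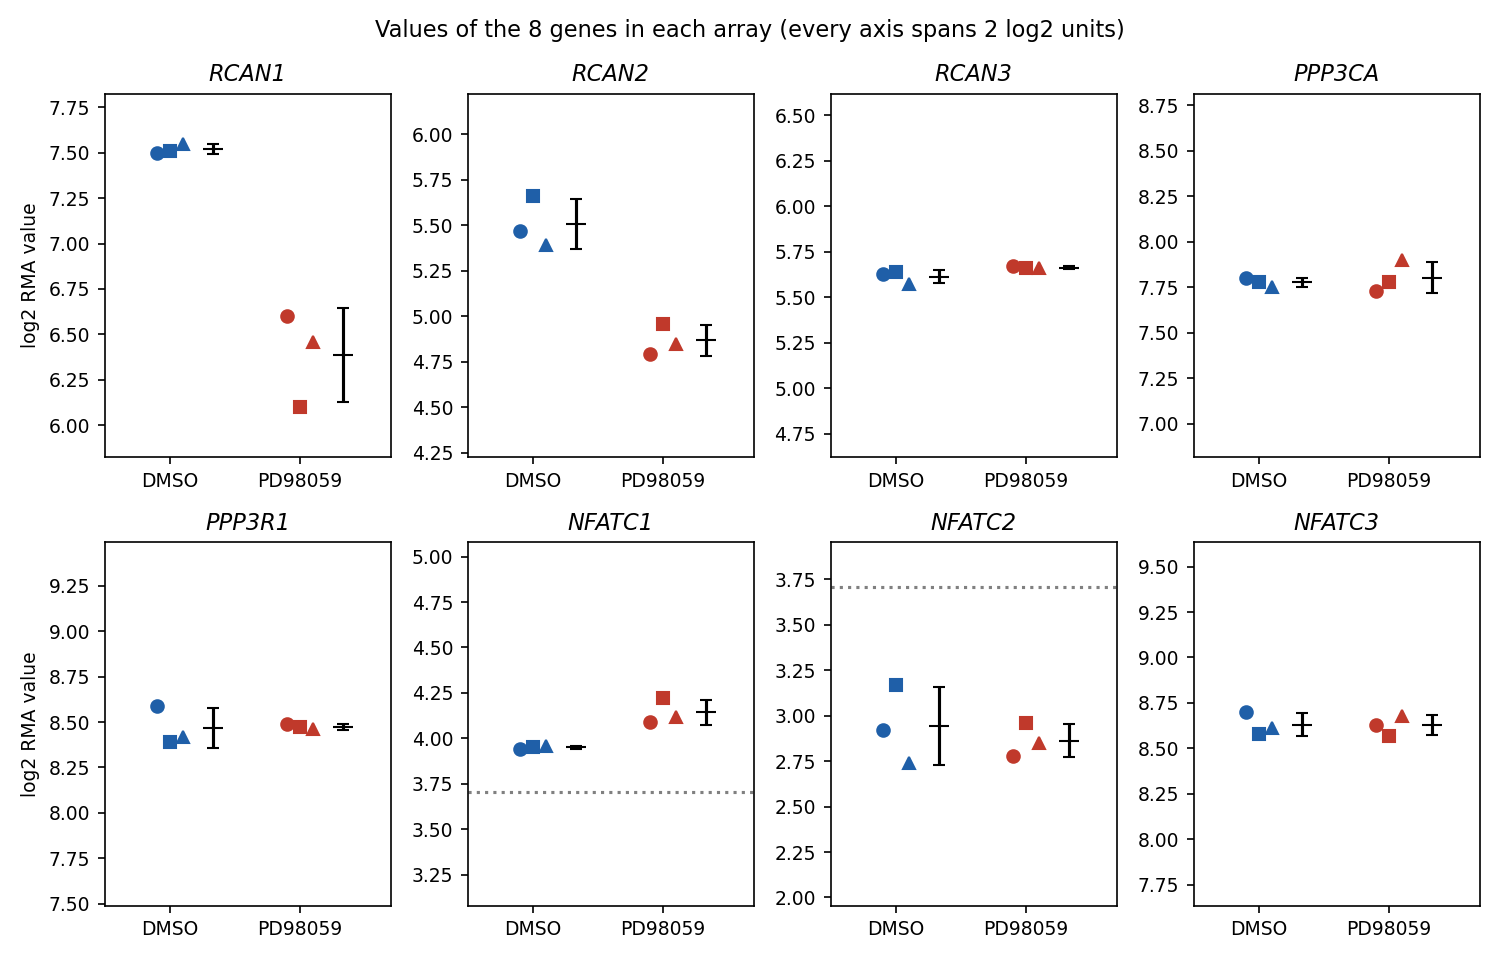
Log2 RMA values of the 8 genes in the 6 arrays (circle, square and triangle mark replicates 1, 2 and 3, with mean and SD beside them and the near-background level of 3.71 as a dotted line where it lies in the panel). RCAN1 and RCAN2 lie lower in all 3 PD98059 cultures than in all 3 DMSO cultures, and NFATC2 is under the dotted line in all 6.

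For calcineurin, the target of the regulators, the subunits PPP3CA and PPP3R1 overlapped between the groups. PPP3CA, the catalytic subunit, was read at 7.80, 7.78 and 7.75 with DMSO and at 7.73, 7.78 and 7.90 with PD98059. The groups overlapped, and the difference was 0.03 (standard error 0.07, 95% interval −0.14 to 0.20). PPP3R1, the regulatory subunit, was read at 8.59, 8.39 and 8.42 with DMSO and at 8.49, 8.47 and 8.46 with PD98059. These, too, overlapped, with a difference of 0.01 (standard error 0.08, 95% interval −0.17 to 0.19). Within each array the RCAN1 value minus the PPP3CA value ran from −0.30 to −0.20 with DMSO and from −1.68 to −1.13 with PD98059. The level of a probe set depends on its probes, so only the shift of this difference, −1.16, can be read, not which mRNA was the more abundant. For RCAN2 against PPP3CA the shift was −0.67 and for RCAN3 0.02.

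The NFAT genes differed in how far they stood above background. NFATC3 stood far above background, at 8.70, 8.58 and 8.61 with DMSO and 8.63, 8.57 and 8.68 with PD98059, and the difference was 0.00 (standard error 0.07, 95% interval −0.17 to 0.16). NFATC1 stood just above background, at 3.94, 3.95 and 3.96 with DMSO and 4.09, 4.22 and 4.12 with PD98059. Its treated arrays all lay above the controls, by 0.13 at the nearest, with a difference of 0.19 (standard error 0.07, 95% interval 0.04 to 0.35), a size inside the fold limit. NFATC2, the form most used by T cells, was near background in all arrays, at 2.92, 3.17 and 2.74 with DMSO and 2.78, 2.96 and 2.85 with PD98059, a difference of −0.08 (standard error 0.12). At that level a change of its mRNA might not be seen.

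Over the 8 genes, the groups did not overlap in 4: RCAN1 and RCAN2 were lower, and RCAN3 and NFATC1 higher. Such separation was found for 25.5% of all clusters, 13.0% on the lower and 12.6% on the higher side, so it was common in this contrast. In size the differences fell into 3 steps, RCAN1 above RCAN2, RCAN2 above NFATC1, and the other 5 genes at 0.08 or less. The interval of RCAN1 just overlaps that of RCAN2, and the difference of 0.49 between their shifts was not tested. Among the 6 remaining genes all intervals lay inside the 1.4-fold limit.

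**Figure D2:**
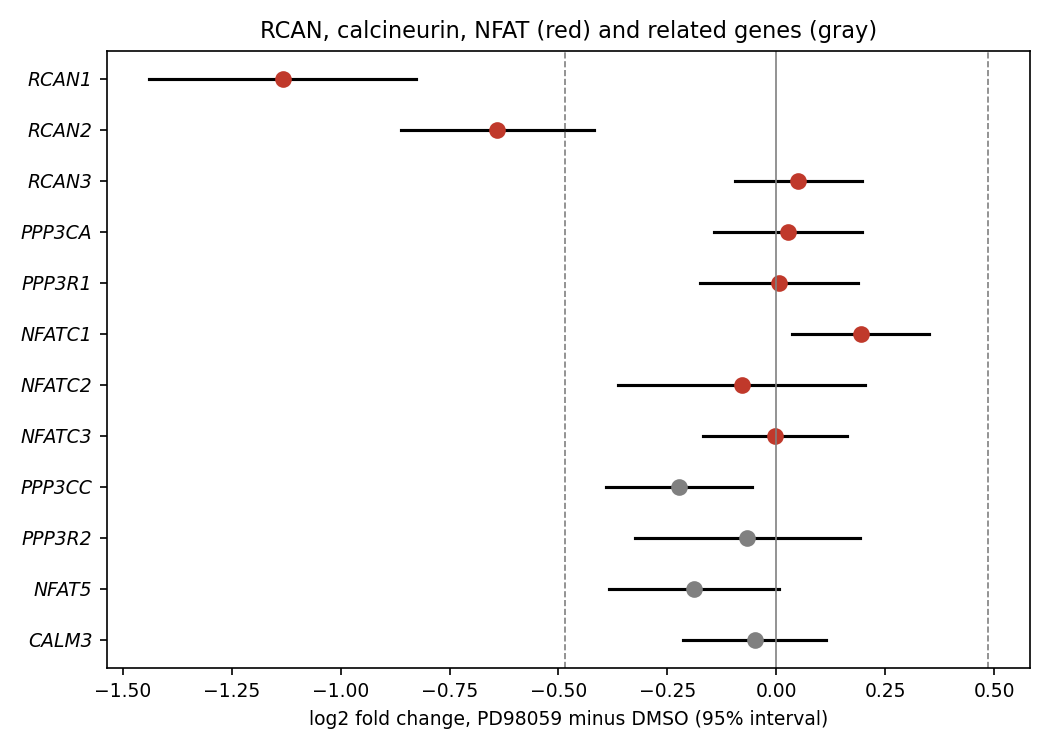
Log2 fold change, PD98059 minus DMSO, with the 95% interval from limma, for the 8 genes (red) and for PPP3CC, PPP3R2, NFAT5 and CALM3 (gray), with dashed lines at a fold of 1.4 in either direction. The intervals of RCAN1 (−1.44 to −0.83) and RCAN2 (−0.86 to −0.42) lie wholly below 0. As the group was chosen by its values in this contrast, these intervals are a description and no test.

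The other genes of the pathway were taken from lists of 112 genes arranged by role. Of these, 106 were read, and 1 rose, 5 fell and 100 did not pass, where 0.909% of all clusters rose and 1.78% fell. The median was −0.08, against 0.01 for all clusters. The lists were made with earlier results of these arrays known, so their counts are not independent evidence. By the unadjusted p under 0.05 in limma 11 were higher and 21 lower, where 9.47% and 10.2% of all clusters were. By the unmoderated test with both limits 1 was higher and 3 lower, beside 0.504% and 0.93% of all clusters. In the lists where limma passed no gene, the unmoderated test passed none either. All adjusted p-values that follow are from limma, over all 24415 clusters.

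The remaining calcineurin and NFAT genes lay slightly lower and did not pass. PPP3CC, a catalytic subunit, was read at 7.71, 7.65 and 7.67 with DMSO and at 7.46, 7.53 and 7.37 with PD98059. Its groups did not overlap, and the difference was −0.22 (standard error 0.07, unadjusted p = 0.016 and adjusted p = 0.145 in limma). NFAT5, the member of the family that responds to osmotic stress and is not governed by calcineurin, had a difference of −0.19 (adjusted p = 0.265). Both clusters are also listed for a further locus, so their values may be shared with it. PPP3R2, the testis form of the B subunit, was near background.

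CALM3, which encodes calmodulin, the Ca2+ sensor that activates calcineurin, differed by −0.05 (standard error 0.07, adjusted p = 0.747) and did not pass. Of 11 proteins read that bind, anchor or inhibit calcineurin, none passed. The brightest were PPIA, the cyclophilin through which cyclosporin acts, at 0.01, CHP1, a calcineurin B homolog, at −0.12, and FKBP1A, the receptor of tacrolimus, at −0.11. In this list 1 was higher and 1 lower at an unadjusted p under 0.05, MYOZ3 and CHP2, both near background.

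Kinases that return phosphate to NFAT and so send it out of the nucleus did not pass either. Their 9 differences lay between −0.14 and 0.15, with CSNK1A1 at −0.01, CSNK1D at −0.10 and DYRK1A at 0.07, and none had an unadjusted p under 0.05. Of 10 kinases that calmodulin activates, 1 fell and none rose, beside 1.78% and 0.909% of all clusters. Among these 10, 2 were higher and 2 lower at an unadjusted p under 0.05 in limma, beside 9.47% and 10.2% of all clusters. CAMK1G was read at 8.05, 7.94 and 8.15 with DMSO and at 7.40, 7.46 and 7.47 with PD98059, a difference of −0.60 (standard error 0.08, adjusted p = 0.0104) whose call was lost without DMSO replicate 1 and with the replicate block. The brightest that did not pass were CAMKK2 at 0.35 (adjusted p = 0.077), CAMK2D at −0.12 and CAMK2G at −0.02.

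Of 14 other proteins that calcineurin dephosphorylates, none passed both limits. Below 0 lay 11 of them, beside 11480 of all 24415 clusters, and the median was −0.12, against 0.01 for all clusters. The brightest were MEF2A at −0.09, TFE3 at −0.13 and DNM1L at −0.15. The transcription factor MEF2D, named here after its value was seen, passed the FDR limit and lay inside the fold limit, at −0.35 (adjusted p = 0.0382). At an unadjusted p under 0.05, 4 were lower and none higher, beside 10.2% and 9.47% of all clusters.

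Of 23 genes of Ca2+ entry, release and removal, 1 rose and none fell, beside 0.909% and 1.78% of all clusters. Here 5 were higher and 5 lower at an unadjusted p under 0.05 in limma, beside 9.47% and 10.2% of all clusters. The gene that rose was PLCB4, a phospholipase C that yields the messenger for Ca2+ release. It was read at 10.22, 10.18 and 10.22 with DMSO and at 10.77, 10.83 and 10.81 with PD98059, a difference of 0.60 (standard error 0.06, adjusted p = 0.00527). The others had values between −0.33 and 0.27, with SARAF, which slows Ca2+ entry, at −0.13, the reticulum pump ATP2A2 at 0.08 and the plasma membrane pump ATP2B1 at 0.18. The median of the list was 0.01, close to that of all clusters. The PLCB4 call held without any single array and was lost with the replicate number as a block.

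NFAT binds DNA together with AP-1, MEF2, GATA and other factors, and among 15 such partners 4 fell and none rose, where 1.78% of all clusters fell and 0.909% rose. EGR1, an immediate early zinc finger factor, was read at 7.95 to 8.12 in the 3 DMSO cultures and at 6.86 to 7.10 in the 3 PD98059 cultures, a difference of −1.04 (standard error 0.09, adjusted p = 0.00323). FOSL1, an AP-1 subunit, was read at 5.81, 5.45 and 5.56 with DMSO and at 4.61, 4.61 and 4.69 with PD98059, a difference of −0.97 (standard error 0.10, adjusted p = 0.00577). In both, every treated array lay below every control. MEF2C was read at 6.20, 6.09 and 6.18 with DMSO and at 5.70, 5.48 and 5.30 with PD98059, a difference of −0.66 (standard error 0.11, adjusted p = 0.0236). JUNB, also of AP-1, differed by −0.55 (standard error 0.09, adjusted p = 0.0211). The calls of EGR1 and FOSL1 held without any single array. That of JUNB was lost without any of the 3 DMSO replicates, PD98059 replicate 1 or PD98059 replicate 3, and that of MEF2C without any DMSO replicate, PD98059 replicate 2 or PD98059 replicate 3. FOS, named here after its value was seen, had a difference of −0.59 and missed the FDR limit (adjusted p = 0.0688). It passed with clusters near background or below the median level left out, with a variance trend and without PD98059 replicate 1. At an unadjusted p under 0.05, 2 partners were higher and 7 lower, beside 9.47% and 10.2% of all clusters. The brightest partners that did not pass were GATA6 at 0.20, FOSL2 at 0.21 and JUN at 0.09. As the lists were made with earlier results of these arrays known, this count is not independent evidence.

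Genes that NFAT is known to drive in T cells, endothelium or heart were mostly near background in granulosa cells. Of 19, 14 were near background, among them IL2, IL4 and IFNG, and none passed. The brightest were PTGS2, the cyclooxygenase of ovulation, at 0.18 (adjusted p = 0.527), tissue factor, F3, at 0.07, and VCAM1 at 0.08. At an unadjusted p under 0.05, 1 was higher, IL6, and 1 lower, CXCL8, both near background. A second dim IL6 cluster differed by −0.40, against 0.26 in the first, so the direction of IL6 was not settled.

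**Figure D3:**
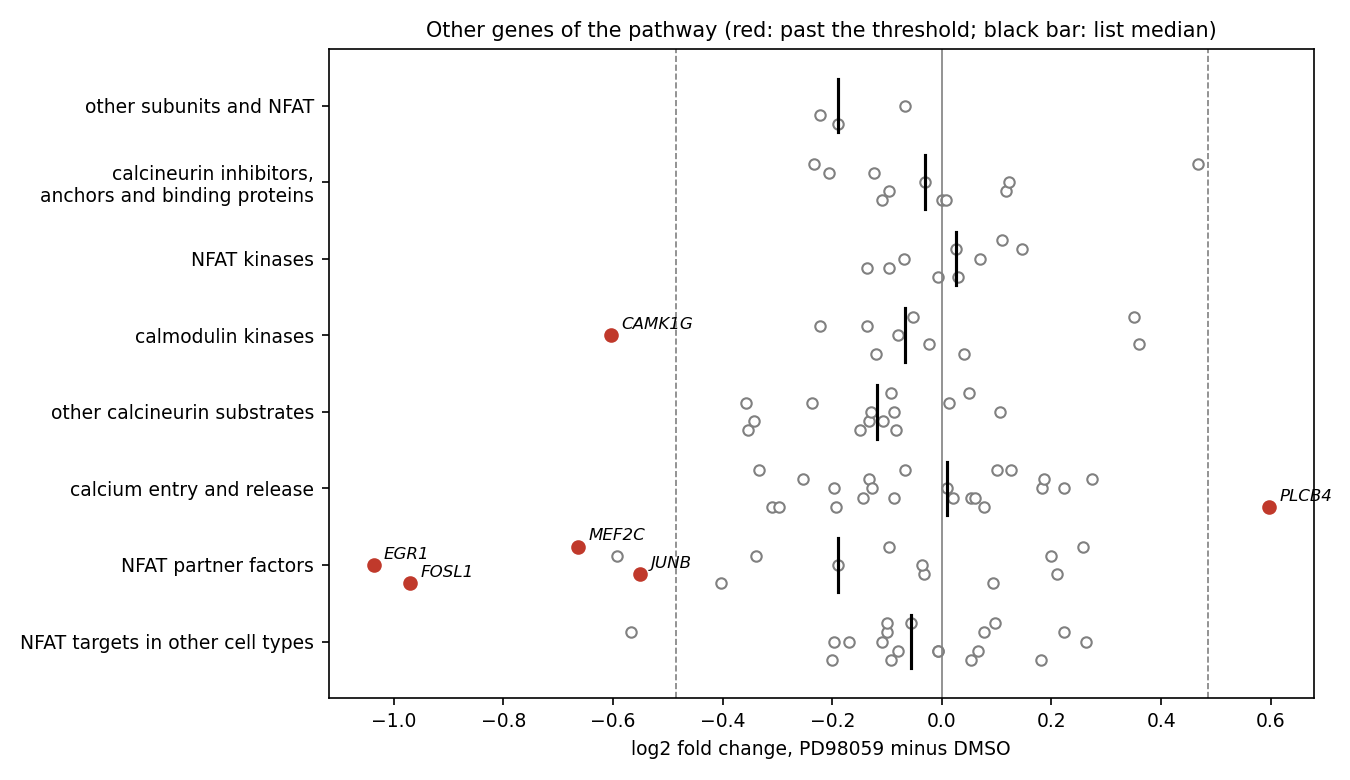
Log2 fold change, PD98059 minus DMSO, of the other genes of the pathway in 8 of the 9 lists, calmodulin being left out (open circles did not pass, red circles passed the FDR and fold limits, black bars are list medians, dashed lines mark a fold of 1.4). The 5 genes past both limits on the lower side are EGR1, FOSL1, MEF2C, CAMK1G and JUNB, and the 1 on the higher side is PLCB4.

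Because RCAN1 and the NFAT factors are well known from leukocytes, vessels and muscle, markers of those cells were read beside them. Of 3 theca markers CYP17A1 was near background, at −0.07, LHCGR stood just above it and did not pass, at 0.17, and INSL3 rose, by 0.61. The summed linear level was 321 to 341 with DMSO and 482 to 500 with PD98059. Most of this sum was INSL3, which was read at 8.25 with DMSO and 8.86 with PD98059. The paper reports INSL3 as induced by PD98059 in granulosa cells. Of 10 leukocyte markers, 7 were near background, among them PTPRC, CD3D and CD2, and none passed (2 were higher at an unadjusted p under 0.05 and none with the unmoderated test). The macrophage and monocyte markers CD68, at 6.67 with DMSO and 6.64 with PD98059, and CD14, at 5.98 and 6.17, stood well above background, and the T cell gene CD3E slightly, at 4.03 and 4.33. The summed linear level of the list was 229 to 251 with DMSO and 238 to 295 with PD98059. Of 4 endothelial markers, PECAM1, TEK and KDR were near background and VWF fell, by 0.57 (adjusted p = 0.0284), and the sum was 63.8 to 71.0 against 53.8 to 55.2. Of 6 markers of smooth muscle and fibroblasts, none was near background, CNN1 and PDGFRA fell, by 0.66 and 0.59 (adjusted p = 0.0425 and 0.00719), and the sum was 610 to 671 against 462 to 487. MYH11 of the same list lay at 0.62 and did not pass. The VWF call was lost without any single array other than DMSO replicate 2, and the CNN1 call without any single array. VWF, CNN1 and PDGFRA lay on the same side as RCAN1 and RCAN2, and the part of such cells in that result was not tested. In RNA of whole cultures, fewer cells of a type and less RNA per cell cannot be told apart.

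The genes whose profile lay nearest to that of RCAN1 were found by the root mean square distance over the 6 arrays, after each gene's own mean was subtracted, among 13256 named clusters above background. The nearest were WNT2B, a secreted WNT ligand, at a distance of 0.07, ALDH1L2, a mitochondrial folate enzyme, at 0.07, PYCR1, which makes proline, at 0.08, PSAT1, of serine synthesis, at 0.10, and CTH, which makes cysteine, at 0.10. ALDH1L2, for example, was read at 8.35, 8.16 and 8.26 with DMSO and at 7.27, 6.88 and 7.19 with PD98059. In all 5, as in RCAN1, PD98059 replicate 2 was the lowest array. The distance was taken over all 6 arrays and thus selects genes with about the same difference, here −1.30 to −1.05. It likewise favors genes with the same order of replicates. Neither the difference nor the low replicate 2 is therefore a finding of its own.

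**Figure D4:**
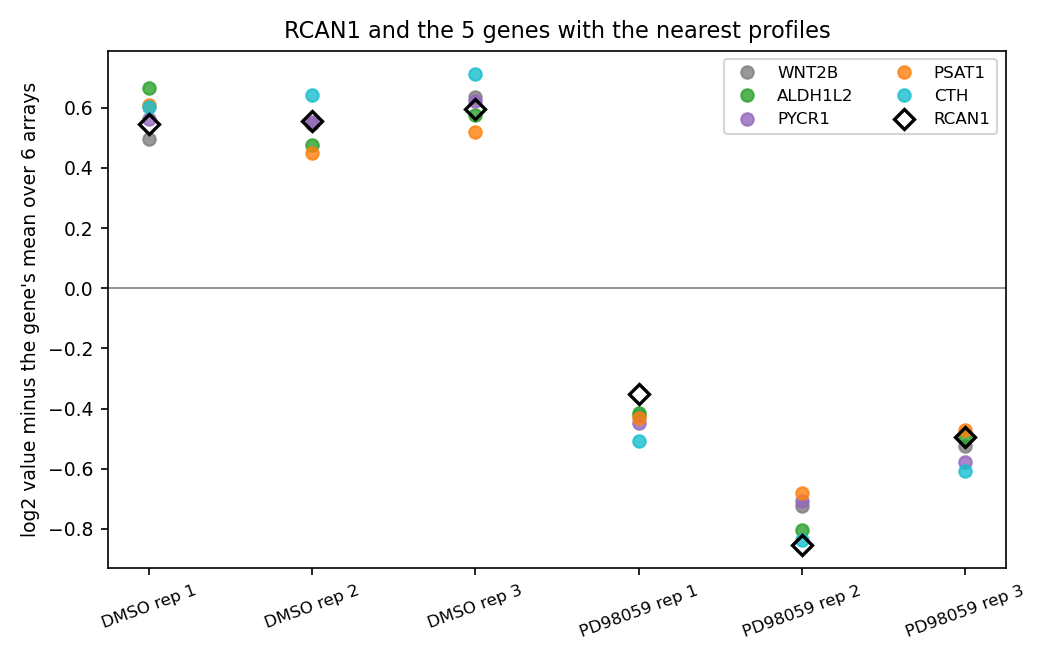
Log2 value minus the gene's mean over the 6 arrays, for RCAN1 (open diamonds) and the 5 genes at the smallest distance from it (0.07 to 0.10). All 6 genes lie above 0 in the DMSO cultures and below 0 in the PD98059 cultures, with the lowest value in PD98059 replicate 2. The 5 genes were selected for this likeness to RCAN1.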

How the data were processed

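The deposited log2 table holds 1 column per array. The authors made it by RMA (background correction, quantile normalization and summary of probes) in Expression Console (version 1.46), from scanner files not used here. No source used here gives a genome build. The value table of the series held the same 146490 values and gives no alternative. As RMA brings all arrays to one distribution, a change common to most mRNAs is lost.

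The genes were matched by symbol. Listed genes were matched by symbol or by unversioned RefSeq accession in ARS-UCD2.0, through which 16051 clusters were named, and the cluster of highest mean stood for a gene. All 24415 clusters were fitted with limma 3.58.1 (lmFit, eBayes) in R 4.3.3, with treatment as the only factor and no filter. The paper names an ANOVA and does not say whether its variances were moderated. The unmoderated test run here is an ANOVA without moderation and may differ from it. At the same limits the unmoderated test passed 350 clusters, 227 lower and 123 higher with PD98059. With limma 656 passed, 434 lower and 222 higher. The paper gives the same lower count and a nearly equal higher count. The fit was tested on simulated data. Tables were made with Python 3.11.15 and pandas 2.3.3. Precision is limited by the number of arrays. Standard errors had a median of 0.10, and 3 arrays against 3 allow no exact p under 0.1.

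Genes, lists and the naming rule were chosen with earlier results of these data known. The rule names all genes of the 3 families, in each list those past the threshold and the 3 brightest others, and the 5 profiles nearest to RCAN1. Some listed genes are counted but not reported by name here. Also tried were a block for the replicate number, array medians subtracted, repeated quantile normalization, filters at the background and median levels, a variance trend, array weights, the unmoderated test, a fold above 2, an FDR under 0.01, the mean of a gene's clusters, and leaving out each array.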

Additional observations from a re-analysis of the deposited data

How the results depend on the processing

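Of the 8 genes, none passed on the higher side under any of 17 alternatives, and RCAN1 and RCAN2 were lower in all 15 in which their difference was computed again, with a difference of −1.24 to −0.99 for RCAN1 and −0.70 to −0.56 for RCAN2. That of RCAN3 moved from 0.05 to 0.02 with array medians subtracted. The 2 that passed became 1, RCAN1, with the replicate block, with a fold above 2 or with an FDR under 0.01, 0 with the unmoderated test, and 1 to 2 without single arrays. Of the other pathway genes, the 1 higher became 0 with the replicate block and with a fold above 2, and stayed 1 without any single array. The 5 lower became 2 with the replicate block, 3 with the unmoderated test, 1 with a fold above 2, 2 with an FDR under 0.01, and 2 to 5 without single arrays, and 6, with FOS added, with either filter or the variance trend. Over all clusters 656 passed, 237 with the replicate block, 350 with the unmoderated test, 87 with a fold above 2, 272 with an FDR under 0.01, and 271 to 491 without single arrays, against 640 to 779 in the remaining settings. Of these shifts, those under stricter limits follow from the setting, and the cause of the others was not tested. Without single arrays the count over all clusters varied with the array left out, from 271 without DMSO replicate 1 to 491 without PD98059 replicate 1. The replicate numbers are not stated to pair cultures: same-numbered arrays correlated in their deviations from the group means with r of 0.05, 0.04 and 0.04, although each array correlated best with its own number. NFATC2 lies near background, where a difference is not detectable with confidence.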

Other observations

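The genes that lie next to the 8 genes on their chromosomes in ARS-UCD2.0 were read as a further description, up to 3 with a cluster on each side. Of 46 such neighbors, 1 was higher and 1 lower past both limits in limma, beside 0.909% and 1.78% of all clusters. At an unadjusted p under 0.05 there were 8, where 9.47% of all clusters were higher and 10.2% lower. None passed with the unmoderated test. Nothing is read from these counts, and several of the neighbors were near background. None of the 30 neighbors of RCAN3, PPP3CA, NFATC1, NFATC2 and NFATC3 passed, with 5 at an unadjusted p under 0.05. Around RCAN1, the chloride channel gene CLIC6, the potassium channel subunit KCNE1, C21orf140 and SMIM11 differed by −0.04 to 0.14. None passed in limma, none at an unadjusted p under 0.05 and none with the unmoderated test. CLIC6, KCNE1 and C21orf140 were near background, where a change might not be seen, and only SMIM11 stood above it. Of the 6 genes around RCAN2, 1 passed, its neighbor CYP39A1, an oxysterol hydroxylase of bile acid synthesis in liver. It was read at 7.65, 7.53 and 7.30 with DMSO and at 7.06, 6.79 and 6.73 with PD98059, a difference of −0.63 (standard error 0.13, adjusted p = 0.0415 in limma), beside −0.64 for RCAN2. This call was lost without any of the 3 DMSO replicates and without PD98059 replicate 2 or 3. The other neighbors of RCAN2, among them ENPP4, ENPP5 and CLIC5, differed by −0.12 to 0.08. Near PPP3R1, which did not differ, PLEK, a protein kinase C substrate of blood cells, was read at 3.81, 3.70 and 4.32 with DMSO and at 4.76, 5.04 and 4.95 with PD98059, a difference of 0.97 (standard error 0.17, adjusted p = 0.0284 in limma). Its call was lost without DMSO replicate 1 or 2 and without any of the PD98059 replicates.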
